A study of Mus musculus with 3 samples.

Results

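To determine how the nutrient content of the medium bears on polyamine metabolism in activated CD4 T cells, the transcripts of 10 genes were examined: Odc1, Amd1, Srm, Sms, Sat1, Oaz1, Oaz2, Azin1, Mtap and Adi1. They were chosen by gene symbol as the enzymes and regulators of polyamine synthesis and of methionine salvage, and each matched 1 of the 23282 gene rows in the expression files. CD4 T cells of C57BL/6 mice, taken from lymph nodes and spleen, were stimulated for 72 h with 2 µg/mL each of anti-CD3 and anti-CD28 antibodies. Complete medium (CM) was RPMI-1640 with 10% serum, dialyzed medium (DM) was RPMI-1640 lacking amino acids with 10% dialyzed serum, and DM+Met was DM to which 30 µM methionine was added. By the paper's measurement DM itself still held methionine, so DM+Met against DM is an addition to methionine already present. By the general methods the mice were female and 6 to 8 weeks old, and whether cells of several mice were pooled is not given in the sources used here. Each medium was represented by 2 libraries, which the study describes as biologically independent although the labels do not say so, and p-values measure only the spread between these 6 libraries.

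Polyamines are small, positively charged molecules that bind nucleic acids and are needed for cell growth, and T cells make them in quantity after activation. Ornithine decarboxylase makes putrescine from ornithine, and the synthases then add aminopropyl groups, taken from decarboxylated S-adenosylmethionine, to give spermidine and spermine. Each transfer leaves methylthioadenosine, which the methionine salvage pathway turns back into methionine. The pathway therefore draws on methionine and also returns it, and antizymes and an antizyme inhibitor set the amount of ornithine decarboxylase protein.

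Each library held 8504862 to 12377245 reads. Expression levels are given as log2(CPM + 1), where CPM is a read count scaled to a common library size after TMM correction, so a level of 0 means that no read was found and a difference of 1 is about 2-fold. Levels were not compared between genes. The ribosomal RNA precursor Rn45s took 15.5% to 20.1% of the reads of the DM+Met libraries and 31.0% to 38.3% of those of the rest. With plain library totals in place of TMM, the median gene differed by 0.34 between DM+Met and DM. Of the markers of CD4 T cells, 9 of 9 were detected, with a summed level of 2129 to 2269 CPM in CM, 2536 to 2770 CPM in DM and 2729 to 2761 CPM in DM+Met. They did not move together. In DM against CM, limma called Cd3g, Cd2 and Cd5 higher (0.72, 0.84 and 1.42) and Cd28 lower (−0.53). Cd4 (−0.31), Cd3d, Cd3e, Lck and Thy1 were not called. Cd2 alone had 447 and 522 CPM in CM, 842 and 886 CPM in DM, and 968 and 919 CPM in DM+Met. The 6 markers of CD8 T and NK cells summed to 73.5 and 77.2 CPM in CM and to 30.6 to 39.4 CPM in the dialyzed media, and their members moved apart. Cd8a was called lower in both dialyzed media against CM (−1.72 and −1.76, adjusted p = 0.0323 and 0.0317), whereas Klrb1c had 0 reads in either CM library, 17 and 22 in those from DM and 45 and 34 in those from DM+Met. Ncr1 and Klra8 had at most 10 reads in any library. The 8 myeloid markers summed to 131 and 159 CPM in CM, 139 and 244 CPM in DM, and 210 and 213 CPM in DM+Met. Most of each sum was Cst3, with 134 and 109 CPM in CM, 187 and 103 CPM in DM, and 168 and 155 CPM in DM+Met. Cst3 was not called in any comparison. Lyz2 had 3 and 15 reads in the CM libraries, 77 and 85 in those from DM and 50 and 50 in those from DM+Met. It passed the filter through the dialyzed media and is described without a test. Itgam and Adgre1 had 0 reads in CM library 2 and DM library 1. The 6 markers of B cells summed to 80.8 and 95.3 CPM in CM, 75.8 and 76.1 CPM in DM, and 57.6 and 65.8 CPM in DM+Met. Cd22 was called lower in DM+Met against CM (−2.08, adjusted p = 0.0273), and Pax5 had 0 reads in every library. The part of these other cells in the results below was not tested, and in bulk samples fewer cells of a type cannot be told apart from less RNA per cell.

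Promoter windows of 300 bases, from 250 bases before to 50 after an annotated start, were available from RefSeq (GRCm38.p6) for 7 of the 10 genes, in 8 windows. They were searched on both strands for CACGTG, the E-box bound by MYC with MAX and by other helix-loop-helix factors, and for TTGCATCA, an element bound by ATF4 with C/EBP proteins. The former was found for Sms alone, in 1 of its 2 windows, and occurs in 7.15% of all 32851 windows. The latter was found in none of the 8 and occurs in 0.895% of all windows. The windows of Odc1, which had the largest called change of the 10 in DM against CM, and of Sms, the gene with a match, are shown 5′ to 3′, with the matched letters in capitals.
Odc1 (GRCm38.p6, chr12:17544623-17544922, plus strand): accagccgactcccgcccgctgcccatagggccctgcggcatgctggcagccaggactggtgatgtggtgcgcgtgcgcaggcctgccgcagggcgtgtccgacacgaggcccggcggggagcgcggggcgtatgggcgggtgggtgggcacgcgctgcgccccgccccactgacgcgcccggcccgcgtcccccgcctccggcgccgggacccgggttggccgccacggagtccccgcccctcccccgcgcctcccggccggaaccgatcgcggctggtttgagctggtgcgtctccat
Sms (GRCm38.p6, chrX:157492238-157492537, minus strand): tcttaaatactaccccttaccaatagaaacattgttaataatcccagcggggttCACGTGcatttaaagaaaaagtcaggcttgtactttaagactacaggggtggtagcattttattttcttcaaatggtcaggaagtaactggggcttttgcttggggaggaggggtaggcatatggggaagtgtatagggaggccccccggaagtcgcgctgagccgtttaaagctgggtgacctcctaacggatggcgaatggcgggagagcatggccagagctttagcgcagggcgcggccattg
The Odc1 window was 78.0% G and C, and held no letters in capitals because neither element was present within it. Bases outside the windows, such as the rest of each gene, were not searched. The absence of a match therefore does not mean that a gene lacks the element. In the Sms window the match began 196 bases before the start. A match of this kind is a description of the letters and no evidence of binding, and windows for Srm, Azin1 and Adi1 were not used here.

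The first question was whether the enzymes of polyamine synthesis differ between CM and DM. Odc1 encodes ornithine decarboxylase, which opens the pathway (GRCm38, chromosome 12, 17544794 to 17551505, plus strand). Its level was 6.91 and 6.77 in CM, compared with 5.27 and 5.20 in DM and with 6.39 and 6.24 in DM+Met. The 3 media did not overlap, and the libraries of each medium lay close together. These levels rested on 1050 and 842 reads in the CM libraries, 369 and 405 in those from DM and 989 and 885 in those from DM+Met. Odc1 fell by 1.60 on the log2 scale in DM (SE 0.20, 95% interval −2.05 to −1.16, limma adjusted p = 0.00115), which is 3.04-fold. The call was kept in 17 of 17 alternative analyses, with log2 fold changes of −1.68 to −1.46.

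The second question was whether added methionine alone accompanies a difference from DM. The level of Odc1 in DM+Met lay above that in DM by 1.08 (95% interval 0.63 to 1.52), or 2.11-fold, and both DM+Met libraries were above both DM libraries. Odc1 ranked 25 of the 12770 genes tested by unadjusted p in this comparison (limma, unadjusted p = 0.000326), but the adjusted p was 0.158 and the difference was not called. It was called in 1 of 17 alternatives, scaling to library totals, with a value of 1.44 (adjusted p = 0.0299), or 1.098 relative to the shifted median of all genes. The adjusted p ranged from 0.0299 to 1 over the alternatives, and the value from 0.999 to 1.44. Against CM, Odc1 in DM+Met was lower by 0.53 (95% interval −0.97 to −0.08, adjusted p = 0.107), so the order of the media was CM, DM+Met and DM, in which CM and DM, its ends, differed beyond the threshold.

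**Figure D1:**
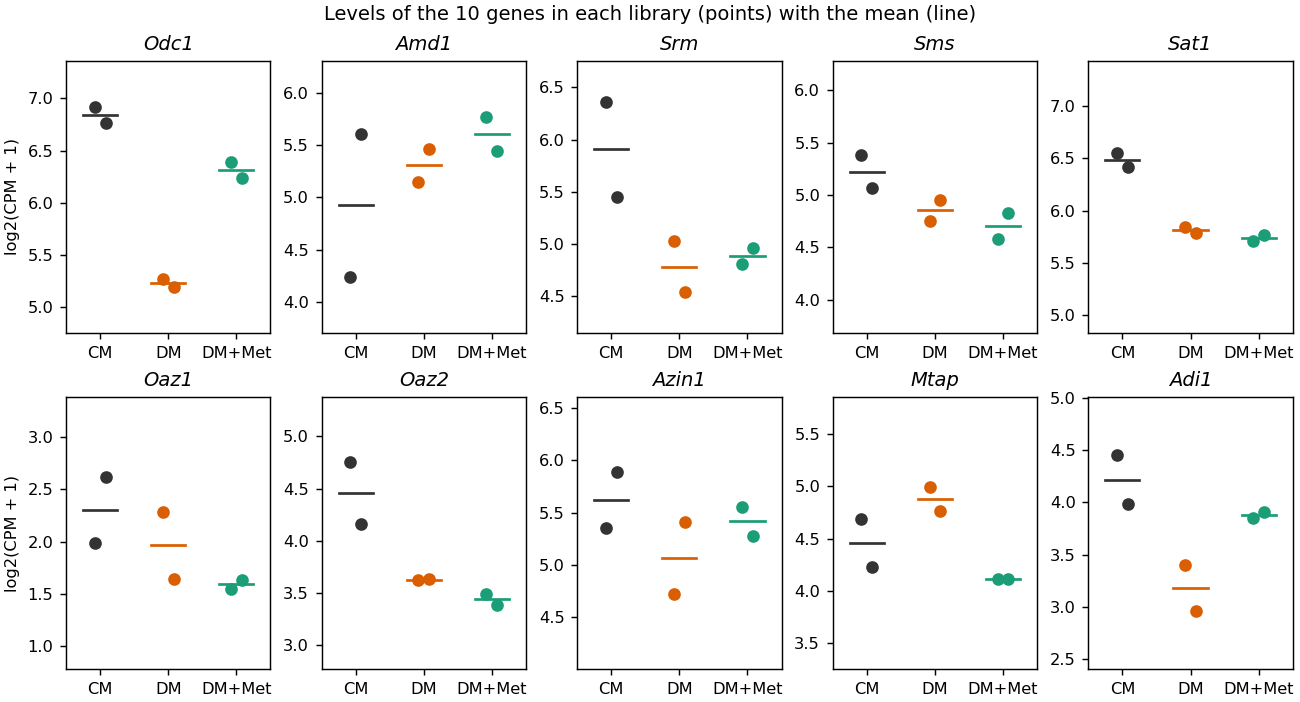
Levels of the 10 genes, as log2(CPM + 1), by medium. Points are libraries (2 per medium), lines are means, and every panel spans the same height in log2 units. The 3 media separate without overlap for Odc1, Sat1, Oaz2, Mtap and Adi1. Among these the DM libraries lie lowest for Odc1, at 5.27 and 5.20, and for Adi1.

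The next enzymes of the pathway are the spermidine and spermine synthases. Srm encodes spermidine synthase (GRCm38, chromosome 4, 148591503 to 148594993, plus strand), and its level was 6.36 and 5.45 in CM, compared with 5.03 and 4.54 in DM and with 4.81 and 4.97 in DM+Met. Both dialyzed media lay below both CM libraries and overlapped each other. Srm fell by 1.12 in DM (95% interval −1.89 to −0.36, adjusted p = 0.0497), just inside the threshold. CM library 1 was higher than CM library 2 by 0.92, and without it the change was −0.67 (adjusted p = 0.266). The call was kept in 6 of 17 alternatives and, among those leaving out a library, in the absence of CM library 2 alone. Between DM+Met and DM, Srm differed by 0.10 (95% interval −0.66 to 0.87, adjusted p = 0.962), and between DM+Met and CM by −1.02 (adjusted p = 0.0734).

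Sms encodes spermine synthase (GRCm38, chromosome X, 157443855 to 157492287, minus strand), and its promoter window is the one with the E-box shown above. The level of Sms was 5.38 and 5.07 in CM, compared with 4.76 and 4.95 in DM and with 4.58 and 4.83 in DM+Met. The CM libraries were again above the other 4, although by less than for Srm. Its log2 fold change was −0.37 in DM (95% interval −1.01 to 0.27, adjusted p = 0.41) and −0.52 in DM+Met against CM (adjusted p = 0.259), neither of which was called. Between DM+Met and DM the value was −0.15 (adjusted p = 0.927), which became 0.20 under library totals.

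Amd1 encodes S-adenosylmethionine decarboxylase, which supplies the aminopropyl donor (GRCm38, chromosome 10, 40287458 to 40302186, minus strand). Its level was 4.24 and 5.61 in the CM libraries, 5.15 and 5.46 in those from DM and 5.77 and 5.44 in those from DM+Met. The CM libraries differed from each other by more than any 2 media did on average, and each comparison overlapped. The log2 fold change was 0.38 in DM (95% interval −0.52 to 1.28, adjusted p = 0.556) and became −0.30 without CM library 1. For DM+Met it was 0.68 against CM (adjusted p = 0.297), −0.0035 without CM library 1, and 0.30 against DM (adjusted p = 0.881).

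The reads of Amd1 may not be separable from those of Amd2, an intronless copy whose transcript matches that of Amd1 at 99.6% of 3202 aligned bases. The Amd1 row held 21.2% of the reads of the pair in CM library 1 (95% Wilson interval 18.4% to 24.2%) and 37.7% in CM library 2 (34.7% to 40.8%). In the other 4 libraries the share was 25.6% to 35.4%, and these intervals cover counting error only. With the reads of both rows summed, an analysis added after seeing the data, the level was 6.42 and 6.996 in CM, compared with 7.08 and 7.096 in DM and with 7.25 and 6.98 in DM+Met. The summed difference was 0.38 in DM against CM (95% interval −0.10 to 0.87, adjusted p = 0.255) and 0.02 in DM+Met against DM (95% interval −0.46 to 0.51, adjusted p = 0.988). Amd1 was thus the synthesis gene without a lower mean in DM than in CM, whether or not its copy was included.

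**Figure D2:**
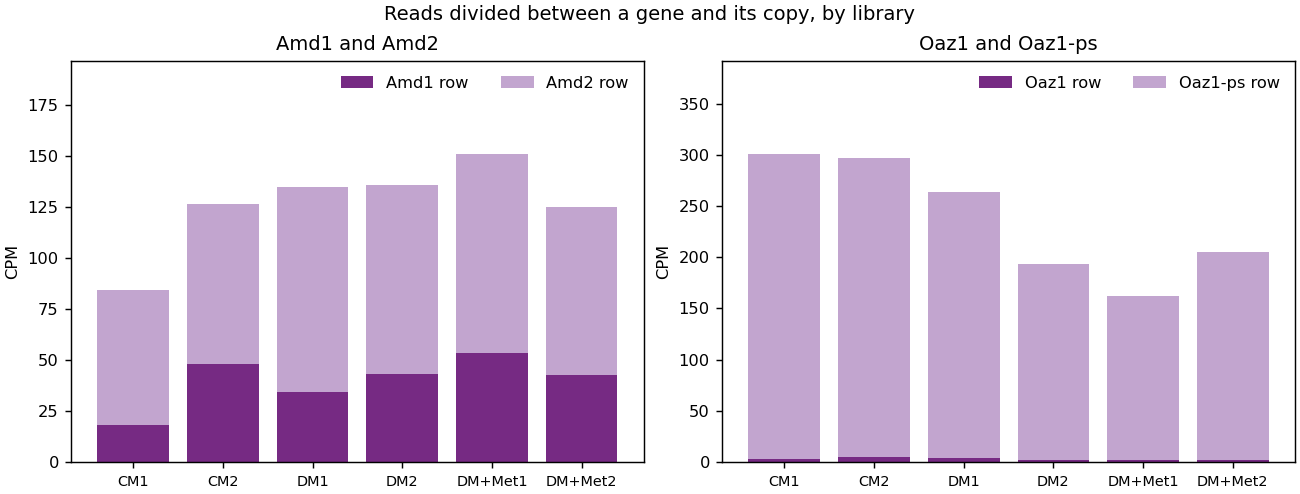
CPM of Amd1 with Amd2 (left) and of Oaz1 with Oaz1-ps (right) in the 6 libraries, stacked from 0. The dark part is the row of the gene and the light part the row of its copy. The Oaz1 row held 23 to 40 reads in each library against 1907 to 2619 in the row of Oaz1-ps.

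The acetylation route of polyamine breakdown starts with Sat1, which encodes spermidine/spermine N1-acetyltransferase (GRCm38, chromosome X, 155213132 to 155216449, minus strand). The level of Sat1 was 6.55 and 6.41 in CM, compared with 5.85 and 5.78 in DM and with 5.71 and 5.77 in DM+Met. Replicates were close in all media, and the dialyzed media lay together, well below CM. Sat1 fell by 0.67 in DM (95% interval −1.12 to −0.22, adjusted p = 0.0488) and by 0.74 in DM+Met against CM (95% interval −1.19 to −0.29, adjusted p = 0.0357). The DM against CM call was kept in 3 of 17 alternatives, and in the alternative with no filter besides, where its adjusted p (limma) rounds to 0.05. It was lost when any of the 6 libraries was left out, with values of −0.74 to −0.60. The DM+Met against CM call was kept in 9 of 17, and was lost without either CM library (−0.68 and −0.81) or either DM+Met library (−0.71 and −0.77). Methionine moved Sat1 by −0.07 (95% interval −0.53 to 0.38, adjusted p = 0.953), and this value was 0.28 under library totals, or −0.053 relative to the median of all genes.

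The antizymes bind ornithine decarboxylase and send it to the proteasome, and the antizyme inhibitor, a relative of the enzyme without its activity, takes them up. Oaz2 encodes antizyme 2 (GRCm38, chromosome 9, 65668001 to 65690300, plus strand), and its level was 4.76 and 4.16 in the CM libraries, 3.62 and 3.63 in those from DM and 3.49 and 3.39 in those from DM+Met. Its media did not overlap, in the order CM, DM and DM+Met. The differences did not pass the threshold, at −0.83 for DM against CM (95% interval −1.74 to 0.07, adjusted p = 0.186) and −1.02 for DM+Met against CM (adjusted p = 0.122). Between DM+Met and DM the value was −0.19 (adjusted p = 0.935), and 0.15 under library totals.

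Oaz1 encodes antizyme 1 (GRCm38, chromosome 10, 80826656 to 80829290, plus strand), and few reads stood in its own row, 26 and 40 in CM, compared with 38 and 24 in DM and with 23 and 25 in DM+Met. The row of Oaz1-ps, a processed pseudogene that matches 99.7% of 685 aligned bases of an Oaz1 transcript of 1044 bases, held 1907 to 2619 reads in each library. Reads from the aligned stretch may stand in either row, and how reads were divided between the rows was not examined. In its own row Oaz1 differed by −0.34 in DM against CM (adjusted p = 0.73), −0.37 in DM+Met against DM (adjusted p = 0.899) and −0.71 in DM+Met against CM (adjusted p = 0.453). Summed with the copy, the level was 8.24 and 8.22 in CM, compared with 8.05 and 7.60 in DM and with 7.35 and 7.69 in DM+Met. Both dialyzed media were below CM, and the sum fell by 0.71 in DM+Met against CM (95% interval −1.14 to −0.28, adjusted p = 0.0339), a value chosen after the reads of the copy were seen. Its difference was −0.40 in DM against CM (adjusted p = 0.175) and −0.31 in DM+Met against DM (adjusted p = 0.656).

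Azin1 encodes antizyme inhibitor 1 (GRCm38, chromosome 15, 38487427 to 38519266, minus strand) and had levels of 5.36 and 5.89 in the CM libraries, 4.72 and 5.42 in those from DM and 5.55 and 5.28 in those from DM+Met. All media overlapped, and the DM libraries differed by 0.70 from each other. The differences were −0.56 in DM against CM (95% interval −1.26 to 0.14, adjusted p = 0.249), 0.35 in DM+Met against DM (adjusted p = 0.786) and −0.21 in DM+Met against CM (adjusted p = 0.701, and 0.18 under library totals). Gm49077 lies on the opposite strand of Azin1 and Gm12607 on that of Mtap, and reads of such partners cannot be told apart because the use of strand is not given in the sources used here. On the same strand, Gm22748 overlaps Odc1, Mir1982 overlaps Oaz1, Mir6951 overlaps Azin1 and Mir6937 overlaps Adi1. The part of these overlapping genes in the reads was not examined.

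The salvage of methionine begins with Mtap, methylthioadenosine phosphorylase (GRCm38, chromosome 4, 89137122 to 89181081, plus strand). Its level was 4.69 and 4.23 in CM, compared with 4.996 and 4.77 in DM and with 4.12 and 4.11 in DM+Met. Among the 10 genes it was the only gene with both DM libraries above both CM libraries, and its DM+Met libraries were the lowest. The difference was 0.42 in DM against CM (95% interval −0.32 to 1.16, adjusted p = 0.419) and −0.77 in DM+Met against DM (95% interval −1.51 to −0.03, unadjusted p = 0.0427, adjusted p = 0.496, limma), and neither was called. In DM+Met against CM the value was −0.35 (adjusted p = 0.525), and 0.027 under library totals.

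Adi1 encodes acireductone dioxygenase 1, a later step of the same pathway (GRCm38, chromosome 12, 28675231 to 28682175, plus strand). The level of Adi1 was 4.45 and 3.99 in CM, compared with 3.40 and 2.96 in DM and with 3.85 and 3.91 in DM+Met, so its media were ordered as those of Odc1, without overlap. The difference was −1.03 in DM against CM (95% interval −1.97 to −0.10, adjusted p = 0.118), 0.70 in DM+Met against DM (95% interval −0.24 to 1.63, adjusted p = 0.641) and −0.34 in DM+Met against CM (adjusted p = 0.633), none of which was called. The last value was 0.032 under library totals. Mtap and Adi1, the salvage genes among the 10, thus had opposite signs in DM against CM and in DM+Met against DM.

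**Figure D3:**
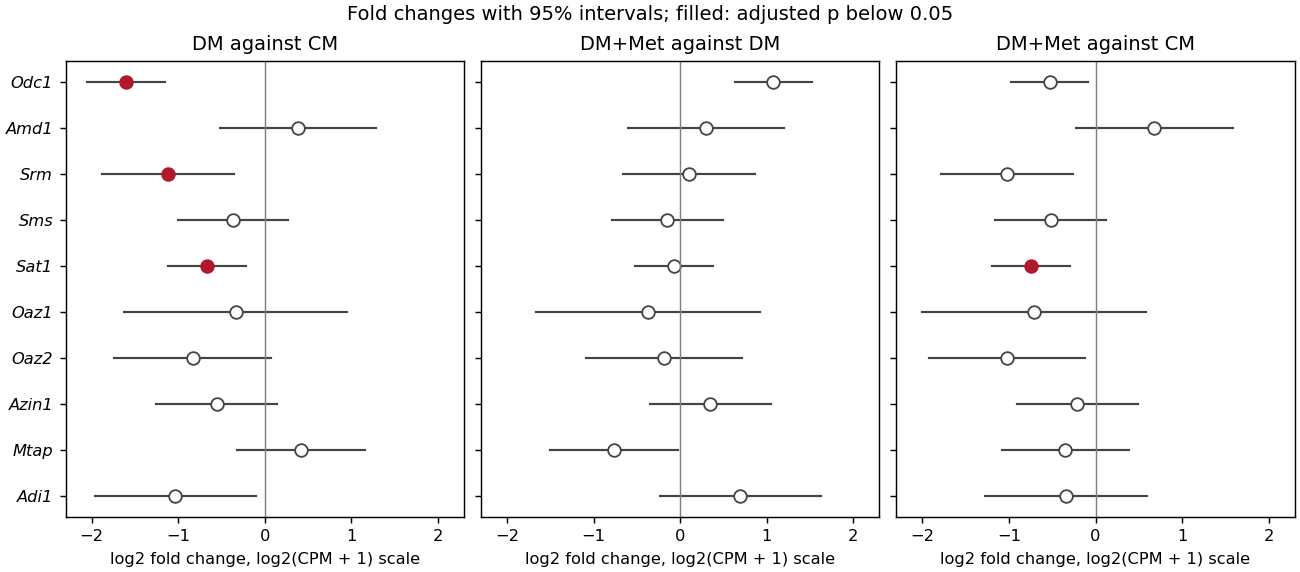
Log2 fold changes of the 10 genes in the 3 comparisons, on the log2(CPM + 1) scale, with 95% intervals from the limma fit. Filled points passed an adjusted p of 0.05. These were Odc1, Srm and Sat1 in DM against CM and Sat1 in DM+Met against CM.

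Counted together, all 10 genes passed the filter on low values. In DM against CM, 3 were called lower (Odc1, Srm and Sat1), where 9.07% of the 12770 genes tested were, and 0 higher by limma or limma-voom, where 7.80% were, or 16.9% in either direction. At an unadjusted p below 0.05 there were 4 of the 10, beside 32.7% of all genes. The DM libraries lay wholly below the CM libraries for 6 of the 10 genes, against 26.2% of all genes, and wholly above for 1, against 27.9%. The median log2 fold change of the 10 was −0.61, beside 0.07 for all genes tested.

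The comparison of DM+Met with CM used these CM libraries again. In it 1 of the 10 genes was called lower (Sat1), where 8.36% of all genes were called lower, 6.92% higher and 15.3% in either direction. At an unadjusted p below 0.05 there were 4 of the 10, beside 30.3% of all genes. The DM+Met libraries were wholly below CM for 8 of the 10, against 28.7%, and wholly above for 0, against 32.2%, with a median of −0.52 beside 0.06. In DM+Met against DM, limma called 0 of the 10, where 0.0392% of all genes were called higher, 0.0157% lower and 0.0548% in either direction, and limma-voom on the recovered reads also called 0. At an unadjusted p below 0.05 there were 2, Odc1 and Mtap, in opposite directions, where 9.69% of all genes passed. The libraries did not overlap for 2 genes that were higher with methionine (Odc1 and Adi1), against 20.4%, and for 4 that were lower, against 20.6%, and the median was 0.02 beside 0.009.

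To place the 10 genes in their pathway, 29 other genes of polyamine and methionine salvage metabolism were listed, of which 23 had enough reads to be tested. Slc18b1 passed the filter only through the DM libraries and is described without a test. Of the rest, 1 was called higher (Mat2a) and 3 lower (Smox, Paox and Got1) in DM against CM, with 18 not called, where 7.80% of all genes were called higher and 9.07% lower. Smox and Paox, which encode the oxidases that break down spermine and acetylated polyamines, were both lower. Smox had levels of 6.73 and 7.05 in the CM libraries, 5.88 and 6.33 in those from DM and 5.67 and 5.78 in those from DM+Met. It fell by 0.78 in DM (SE 0.23, adjusted p = 0.0422) and by 1.17 in DM+Met against CM (SE 0.23, adjusted p = 0.00819). Paox had levels of 4.39 and 4.75 in CM, compared with 3.11 and 2.44 in DM and with 3.01 and 3.18 in DM+Met. It fell by 1.79 in DM (SE 0.46, adjusted p = 0.0269), and differed from CM by −1.47 in DM+Met (adjusted p = 0.0583), short of the threshold. The DM against CM calls of Smox and Paox were lost when any of the 6 libraries was left out, with values of −1.01 to −0.56 for Smox and −2.13 to −1.45 for Paox. Against CM in DM+Met, the call of Smox was lost without CM library 2 (−1.0045) and without DM+Met library 1 (−1.11) or 2 (−1.22).

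Among genes that feed the pathway, Mat2a and Got1 moved apart. Mat2a encodes the catalytic subunit of methionine adenosyltransferase, which makes S-adenosylmethionine. Its level was 7.32 and 7.12 in CM, compared with 8.75 and 8.19 in DM and with 8.38 and 8.50 in DM+Met. Mat2a rose by 1.25 in DM (adjusted p = 0.0032) and by 1.22 in DM+Met against CM (adjusted p = 0.00317), and differed by −0.03 between DM+Met and DM (95% interval −0.47 to 0.40). Without CM library 2 its adjusted p was 0.0544 in DM and 0.0583 in DM+Met, and the latter call was also lost without DM+Met library 1 or 2 (1.28 and 1.16). Got1, an aspartate aminotransferase that can perform the last transamination of methionine salvage, had levels of 6.98 and 6.80 in the CM libraries, 6.19 and 6.01 in those from DM and 5.99 and 5.60 in those from DM+Met. It fell by 0.79 in DM (SE 0.22, adjusted p = 0.0323, lost without any 1 of the 6 libraries) and fell by 1.10 in DM+Met against CM (adjusted p = 0.00838, kept without either DM library and lost without any 1 of the other 4, at −1.29 to −0.90). In DM+Met against CM, 1 gene of this list was called higher (Mat2a) and 2 lower (Smox and Got1), where 6.92% of all genes were called higher and 8.36% lower.

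Slc18b1 encodes a vesicular polyamine transporter. It had 0 reads in CM and DM+Met and 18 and 47 reads in DM, or 1.84 and 4.15 CPM. The mean of these DM values was 8.25-fold the CM floor of 3 reads per library, which is 0.363 CPM. Between DM+Met and DM, 0 of the 23 genes were called by limma and 0 by limma-voom. With Slc18b1 left out, only Mat2b and Eif5a2 had an unadjusted p below 0.05 (limma, 0.0447 and 0.0468), where 9.69% of all genes passed. Eif5a2 had 48 and 8 reads in DM+Met, 9 in CM library 1 and 0 in the other 3 libraries. Of the 6 genes that were not tested, Agmat, Sat2, Satl1 and Il4i1 had 0 reads in every library. The remaining steps of salvage, Mri1, Apip and Enoph1, had differences of −0.57, −0.84 and −0.51 in DM against CM with adjusted p-values of 0.285, 0.324 and 0.511. Eif5a, the protein of which carries the spermidine-derived residue hypusine, differed by −0.41 (adjusted p = 0.106).

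**Figure D4:**
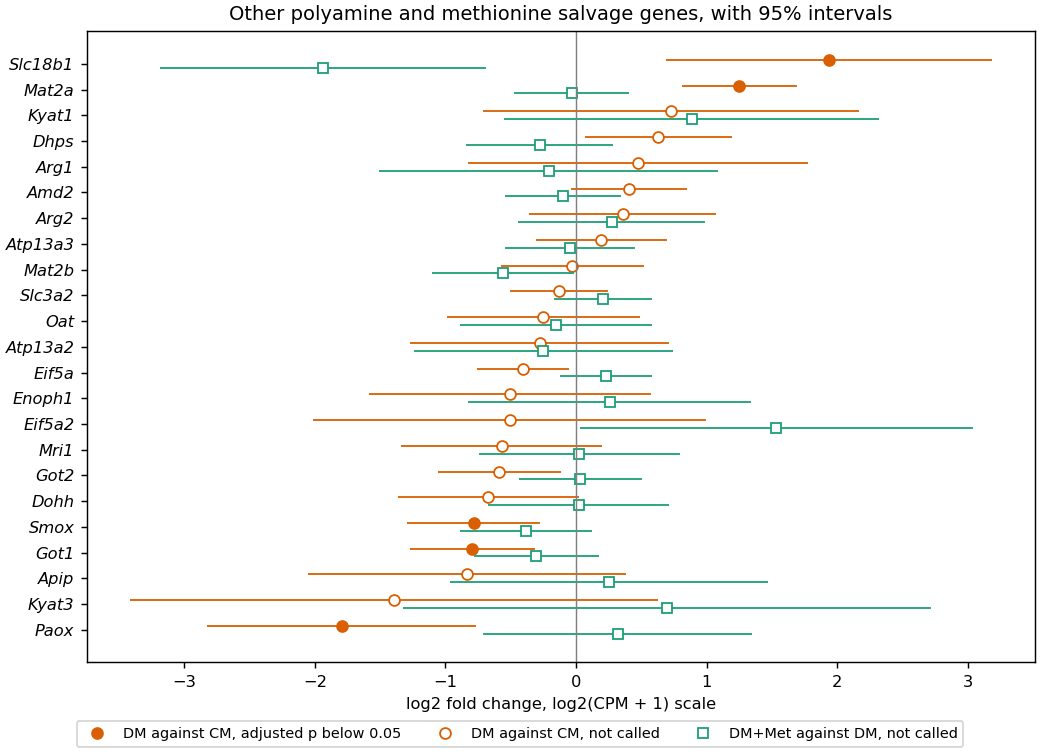
Log2 fold changes, on the log2(CPM + 1) scale with 95% intervals, of the 23 tested genes of the wider pathway. Circles are DM against CM and squares DM+Met against DM, and filled symbols passed an adjusted p of 0.05. Mat2a was called higher and Paox, Got1 and Smox lower in DM, no square is filled, and the filled circle of Slc18b1 stands for a gene with 0 reads in CM that passed the filter only through DM.

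Myc, a transcription factor known to activate Odc1, moved in the opposite direction to it in DM against CM. The level of Myc was 3.72 and 3.57 in CM, compared with 5.61 and 4.996 in DM and with 4.89 and 5.49 in DM+Met. The CM libraries lay below all others. Myc rose by 1.66 in DM (95% interval 0.88 to 2.43, adjusted p = 0.0117) and by 1.54 in DM+Met against CM (adjusted p = 0.0158). The former call was kept in 10 of 17 alternatives and lost when any of the 6 libraries was left out, with values of 1.35 to 1.96 and adjusted p-values of 0.0509 to 0.0989. The latter was lost without either CM or either DM+Met library, with values of 1.24 to 1.84.

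The genes whose levels tracked Odc1 most closely over the 6 libraries, among 5564 tested genes with a mean of at least 20 CPM, were Mrpl42 (Pearson's r = 0.993), Pltp (0.992) and Ctsa (0.992). In each of them, as in Odc1, the DM libraries were lowest and the CM libraries highest. For example, Mrpl42 had levels of 5.36 and 5.19 in CM, compared with 3.88 and 3.85 in DM and with 4.97 and 4.60 in DM+Met. In all, 147 of these genes had r above 0.9 with Odc1, against 638 with Sat1. The genes closest to Sat1 were Ccnb2 (0.999), a mitotic cyclin, Bri3bp (0.997) and Dctpp1 (0.995), all high in CM and low in both dialyzed media. Ccnb2, for example, had levels of 6.67 and 6.13 in CM and 3.05 to 3.56 in the other 4 libraries. These correlations describe the same 6 libraries, which share their scaling, and carry no p.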

How the data were processed

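CD4 T cells from 3 media were profiled by 3′-end RNA sequencing of 500 ng of total RNA. Per the labels, the submitters' processing notes name mm10, Bowtie2 and bedtools, without versions. The annotation and the use of strand are not given in the sources used here. The deposited values are log2(CPM + 1) with TMM scaling, as worked out from their even steps, which gave whole reads (within 0.1) for at least 99.89% of values of up to 300 reads, and hence the depth.

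Because the deposited unit is log2, no count model was used. limma 3.58.1 (R 4.3.3, intensity trend) was fitted to all 6 libraries without covariates, on 12770 genes with at least 0.946 CPM in 2 libraries and 15 reads in total, with two-sided tests and Benjamini-Hochberg adjustment over all genes (threshold 0.05). The script was tested on simulated data. The text names all 10 genes, genes of the wider pathway that passed the threshold, Myc, and the 3 genes most correlated with Odc1 and with Sat1 (predicted genes passed over). Mri1, Apip, Enoph1, Eif5a, Eif5a2, Mat2b, the markers and the untested genes were named after their values were seen. The members and lists were chosen with earlier results of these data known. Libraries of a medium differed by more than sampling noise (chi-square per degree of freedom 18.2 to 35.9) and were kept separate. Positions came from GENCODE M21 (GRCm38, the same as mm10), and copies were aligned with blastn 2.17.0. Alternatives changed scaling, filter, pseudocount, model, samples and block, or left out a library.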

Additional observations from a re-analysis of the deposited data

How the results depend on the processing

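The number of the 10 genes called in DM against CM (3) was 1 under library totals, library totals without Rn45s, no intensity trend or only the 2 media in the fit, and 1 to 2 when a library was left out; Odc1 was called throughout. In DM+Met against CM (1) it was 0 under library totals, library totals without Rn45s, no intensity trend or the replicate block, 2 with at least 10 reads in every library, and 0 to 1 when a library was left out. In DM+Met against DM (0) it was 1 under library totals (Odc1) and 0 to 0 when a library was left out. Of the wider pathway, the 5 genes called in DM against CM (Slc18b1, which passed the filter only through DM, included) became 3 under library totals without Rn45s, 2 with no filter or no intensity trend, 1 with only the 2 media, and 0 to 3 when a library was left out. The 3 genes called in DM+Met against CM became 5 under library totals, 0 without an intensity trend, and 0 to 3 when a library was left out. A fit without a library has fewer samples, and over all genes it gave 541 to 1061 calls in DM against CM in place of 2154, and 268 to 1622 in DM+Met against CM in place of 1952 (268 and 294 without a DM+Met library). Over all genes, the 2154 calls in DM against CM became 1329 without an intensity trend and 795 with only the 2 media. The 1952 in DM+Met against CM became 2701 under library totals, 1265 with no filter and 944 without a trend. The 7 in DM+Met against DM were 0 to 55. When a library was left out, a lone library of a medium was assumed to vary like the others.

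Under library totals, the sign turned in DM+Met against DM for Sms (0.20), Sat1 (0.28) and Oaz2 (0.15), and in DM+Met against CM for Azin1 (0.18), Mtap (0.027) and Adi1 (0.032); medians of all genes there were 0.34 and 0.41, and relative to these the 6 values were −0.381 to −0.053. When a library was left out, Amd1 ranged from −0.30 to 1.07 in the comparison of DM with CM, and between −0.0035 and 1.37 in that of DM+Met with CM (lowest without CM library 1), Azin1 from −0.48 to 0.059 in DM+Met against CM (positive without CM library 2), and Srm from −0.14 to 0.35 in DM+Met against DM (negative without DM library 2). None of these reversed values was called. Of the alternative values for the 10 genes, 471 kept direction and side of the threshold, 32 lost a call, 3 gained one and 10 turned. File numbers were treated as a replicate block although no label pairs them: deviations of same-numbered libraries correlated at −0.03 to 0.005 across genes, and under the block Sat1 lost its calls (adjusted p = 0.0762 in DM against CM and 0.0562 in DM+Met against CM), leaving 2 and 0 of the 10 genes. Where no cause is given, the cause was not tested. With a median SE of 0.44 per gene, small differences were not detectable at this depth and number of libraries.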

Other observations

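The difference between the log2 levels of Odc1 and Sat1 within a library is given here for how it varied between media, not for its size, since levels were not compared between genes. It was 0.36 and 0.35 in the CM libraries, 0.68 and 0.47 in those from DM+Met, and −0.57 and −0.58 in those from DM. The same difference between Odc1 and Oaz2 was 1.65 and 1.57 for DM, where it was lowest, compared with 2.16 and 2.60 for CM and 2.90 and 2.84 for DM+Met. Between Odc1 and Azin1 it was 0.56 and −0.22 for DM, 1.56 and 0.87 for CM and 0.84 and 0.96 for DM+Met. These differences largely cancel a library's scaling and were not tested.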
